A study of Homo sapiens with 4 samples.

Results

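The genes described here carry out the liver cell's own fat production: they make fatty acids from acetyl-CoA, elongate and desaturate them, join them into triglyceride, store that triglyceride in lipid droplets or load it onto secreted lipoproteins. A list of 35 such genes was taken, and each was read from the rows of the deposited table whose platform symbol names that gene alone, using its brightest probe set (by mean over all arrays). This gave 33 genes of the 22395 with a probe set of their own. FADS1 and FADS3 were the other 2: their probe sets also list another gene, so neither was counted. The arrays were made from Huh7, a human line from a hepatocellular carcinoma. The first group was transfected with pcFLAG-hSTYK1, a plasmid that carries human STYK1, a receptor-like kinase also called NOK, and the second with pcFLAG, the plasmid used as the control. Each group has 2 arrays, called STYK1 and pcFLAG arrays below. The sources used here give neither the time after transfection nor the share of cells that took up a plasmid, and each array averages over all cells of its sample. The labels do not say whether replicate arrays stem from separate cultures, so each p-value measures only the spread between these arrays, which may be technical. The comparison asks whether overexpressed STYK1 goes with a different level of these transcripts.

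Liver cells export citrate from mitochondria and split it into acetyl-CoA, which acetyl-CoA carboxylase and fatty acid synthase turn into palmitate. Elongases and desaturases then give stearate, oleate and the long polyunsaturated acids, and acyltransferases, lipins and DGAT enzymes put acyl chains on glycerol. The transcription factor SREBP-1c, under insulin and LXR, and the glucose-responsive factor ChREBP are the known drivers of the early steps in liver, and hepatoma lines keep much of this programme.

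Values are the log2 signals of the deposited table. Different probe sets bind their targets with different strength, so a gene's signal was compared between arrays and never with that of another gene. A signal was taken as above background where it passed the floor, a level that 95% of the 462 probe sets for olfactory receptors on the same array did not exceed, which lay between 0.75 and 0.77. STYK1 itself read 7.40 and 7.86 in the STYK1 arrays, against 0.26 and 0.61 in the pcFLAG arrays, where it was under the floor (STYK1 arrays at least 117-fold higher; limma, adjusted p = 0.0373). That call was lost when any 1 array was left out (adjusted p of 0.427 without STYK1 replicate 1, 0.724 without STYK1 replicate 2, 0.558 without pcFLAG replicate 1 and 0.347 without pcFLAG replicate 2) and with the replicate number as a block (adjusted p = 0.0637). Array medians lay between 0.615 and 0.629, and the arrays correlated at 0.985 to 0.987 within and between groups. All 8 measured hepatocyte markers, among them ALB and AFP, were above the floor on the 4 arrays. All 8 measured macrophage and endothelial markers, among them PTPRC and CD163, were under it on the 4 arrays. Of 8 adipocyte markers 5 were under it throughout, among them ADIPOQ, LEP and FABP4. The summed linear signal of the 8 was 12.6 and 12.5 in the STYK1 arrays, against 12.2 and 12.2 in the pcFLAG arrays. Without PLIN1 it was 10.5 and 10.9 in the STYK1 arrays, against 10.8 and 10.7 in the pcFLAG arrays.

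The fat synthesis and storage genes showed no change that passed the test. By limma with adjustment over all 53617 probe sets, 0 of the 33 had an adjusted p under 0.05, where 0.00187% of all probe sets did. At an unadjusted p under 0.05 there was 1 of 33, LPIN3, where 4.64% of all probe sets and 3.72% of all genes reached that level. LPIN3 had the lower mean in the STYK1 arrays, as had 1.91% of all probe sets at that level, while 2.73% had the higher one. Differences, STYK1 minus pcFLAG, ran from −0.46 for LPIN3 to 0.25 for PLIN5, with a median of −0.035 over the 33 genes and 0.0022 over all 22395 genes. Of the 33, 12 had a positive and 21 a negative difference, and with the arrays centred on the median of the brighter probe sets the split was 7 and 26. Centring lowered every difference by the same amount, −0.045, and the share of positive differences among all genes was 50.8% as deposited and 36.2% after centring. In bulk RNA, fewer cells with a transcript and less of it per cell cannot be told apart.

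The intervals show what size of change these 4 arrays leave possible for genes above the floor. Like the p-values they rest on the spread between arrays, so with technical replicates they would not bound a change between cultures. For THRSP, CIDEC and CD36, under the floor on all 4 arrays, the intervals describe background and bound no change of the transcript. SCD5, LPIN3 and PLIN4 were under it on some arrays, which limits their intervals too. For 33 of 33 genes the 95% interval of the difference lay within a 2-fold change either way, but this held for 98.8% of all genes too. For 29 of the 33 it lay within a 1.5-fold change, where this held for 19510 of all 22395 genes. The exceptions among the 33 were FASN, THRSP, LPIN3 and PNPLA3. The median standard error was 0.12 for the 33 genes and 0.11 for all genes. The groups did not overlap for 7 of the 33 genes, or 21.2%, where 32.9% of all genes had groups that did not overlap. These 7 were ELOVL1, LPIN3, PLIN4, PLIN5, PNPLA2, CIDEB and CD36.

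**Figure D1:**
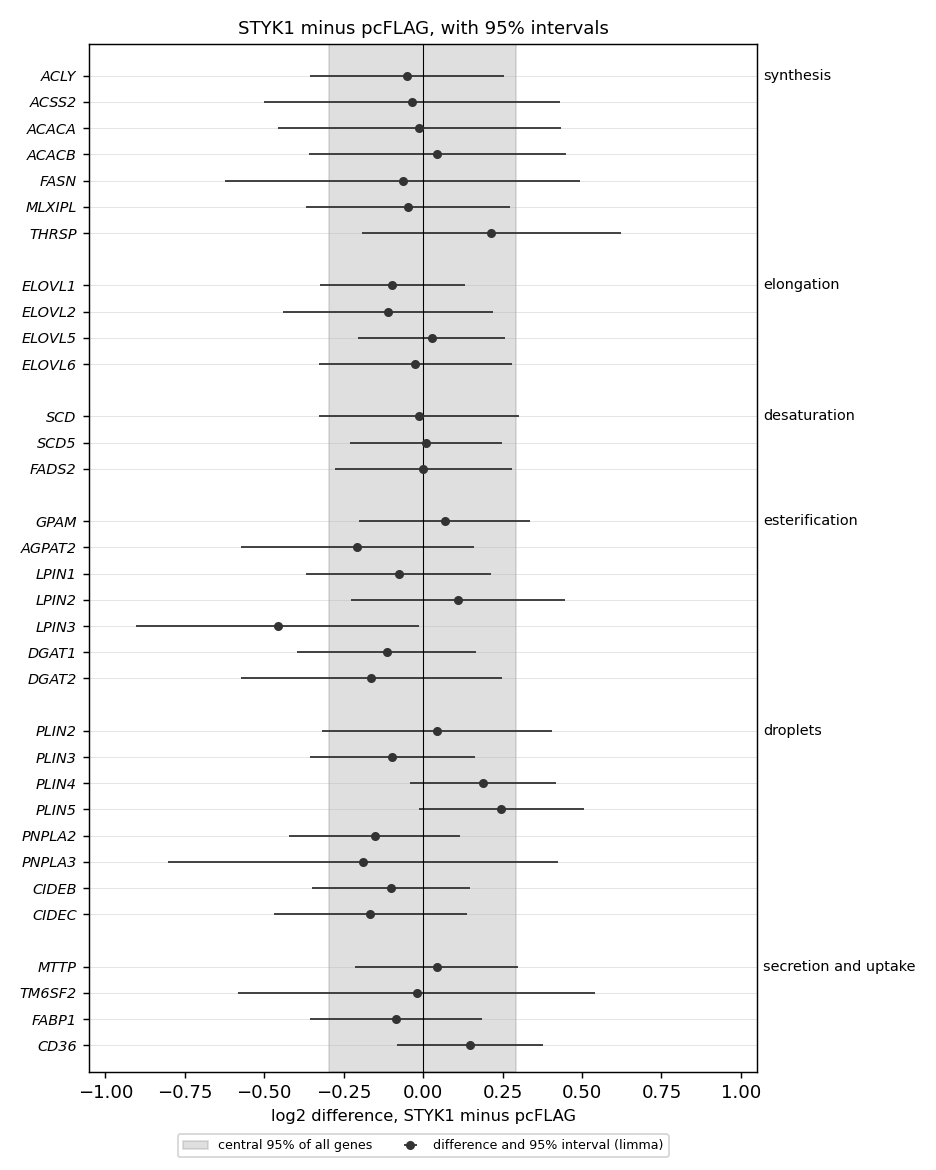
Log2 difference, STYK1 minus pcFLAG, for the 33 genes by step, with points for the fitted difference and bars for its 95% interval (limma, n = 2 arrays per group). The grey band holds the central 95% of the differences of all genes, from −0.30 to 0.29. LPIN3 at −0.46 is the gene outside the band, and the interval of every other gene includes 0.

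Synthesis of fatty acids starts with acetyl-CoA. ACLY, which splits citrate into cytosolic acetyl-CoA, read 7.79 and 8.03 in the STYK1 arrays, against 7.93 and 7.99 in the pcFLAG arrays, a difference of −0.051 ± 0.12 (SE). ACSS2, which makes acetyl-CoA from acetate, read 3.23 and 3.52 in the STYK1 arrays, against 3.21 and 3.61 in the pcFLAG arrays. For both genes the groups overlapped, and the distance between arrays of one group was larger than that between the group means. ACACA, the acetyl-CoA carboxylase of the cytosol that makes malonyl-CoA for synthesis, read 5.88 and 6.30 in the STYK1 arrays, against 6.19 and 6.02 in the pcFLAG arrays. Its paralogue ACACB, whose malonyl-CoA restrains fatty acid entry into mitochondria, read 1.48 and 1.08 in the STYK1 arrays, against 1.21 and 1.26 in the pcFLAG arrays. The pair was ordered the opposite way in the STYK1 arrays: replicate 1 held the lowest of the 4 values for ACACA and the highest for ACACB.

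FASN, the synthase that builds palmitate, had the widest spread of the step. It read 6.55 and 7.16 in the STYK1 arrays, against 6.91 and 6.94 in the pcFLAG arrays, a difference of −0.065 ± 0.21 (SE; 95% interval −0.62 to 0.49). The pcFLAG values thus lay between the STYK1 values, which were 0.60 apart. Without STYK1 replicate 1 the difference was 0.24 and without STYK1 replicate 2 it was −0.37, so its sign followed whichever STYK1 array was kept. MLXIPL, which encodes ChREBP, read 3.65 and 3.43 in the STYK1 arrays, against 3.67 and 3.51 in the pcFLAG arrays. THRSP, the lipogenic cofactor Spot 14, was under the floor on all 4 arrays, so its difference of 0.22 is no measure of a change. The adjusted p-values of the 7 synthesis genes were 0.979 or higher (limma).

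Elongation genes had differences between −0.11 and 0.027. ELOVL1, which extends saturated and monounsaturated chains to very long ones, read 3.49 and 3.57 in the STYK1 arrays, against 3.63 and 3.62 in the pcFLAG arrays. Its groups did not overlap, but the difference was −0.097 ± 0.087 (SE; limma, adjusted p = 0.983). ELOVL2, which extends polyunsaturated acids, read 5.88 and 5.91 in the STYK1 arrays, against 6.15 and 5.86 in the pcFLAG arrays, where pcFLAG replicate 1 stood apart. ELOVL5, which acts earlier on polyunsaturated acids, differed by 0.027 ± 0.088 (SE), and its sign turned under quantile normalization (−0.0032) and with the common shift of centring (−0.018). ELOVL6, which turns palmitate into stearate, read 1.83 and 1.99 in the STYK1 arrays, against 2.03 and 1.84 in the pcFLAG arrays, so both groups covered the same range.

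The desaturases differed between the groups by −0.014 to 0.0096. SCD, the delta-9 desaturase that makes oleate from stearate, read 9.04 and 9.31 in the STYK1 arrays, against 9.18 and 9.20 in the pcFLAG arrays, a difference of −0.014 with a 95% interval of −0.33 to 0.30. FADS2, the delta-6 desaturase of polyunsaturated acids, read 4.30 and 4.49 in the STYK1 arrays, against 4.36 and 4.43 in the pcFLAG arrays. In both genes the 2 pcFLAG values lay inside the span of the STYK1 values. SCD5, a second human stearoyl-CoA desaturase, lay at the floor: it read 0.71 and 0.80 in the STYK1 arrays, against 0.71 and 0.78 in the pcFLAG arrays, with 1 array of each group above the floor. The differences of FADS2 (0.0010) and SCD5 (0.0096) were so near 0 that the common shift of centring turned their sign, to −0.044 and −0.035. The probe set that lists FADS1, the delta-5 desaturase, together with the microRNA gene MIR1908 read 6.51 and 6.67 in the STYK1 arrays, against 6.55 and 6.59 in the pcFLAG arrays. The one that lists FADS3, MIR1908 and FADS1 read 1.32 and 1.11 in the STYK1 arrays, against 1.11 and 1.19 in the pcFLAG arrays. Neither value can be given to a single gene.

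**Figure D2:**
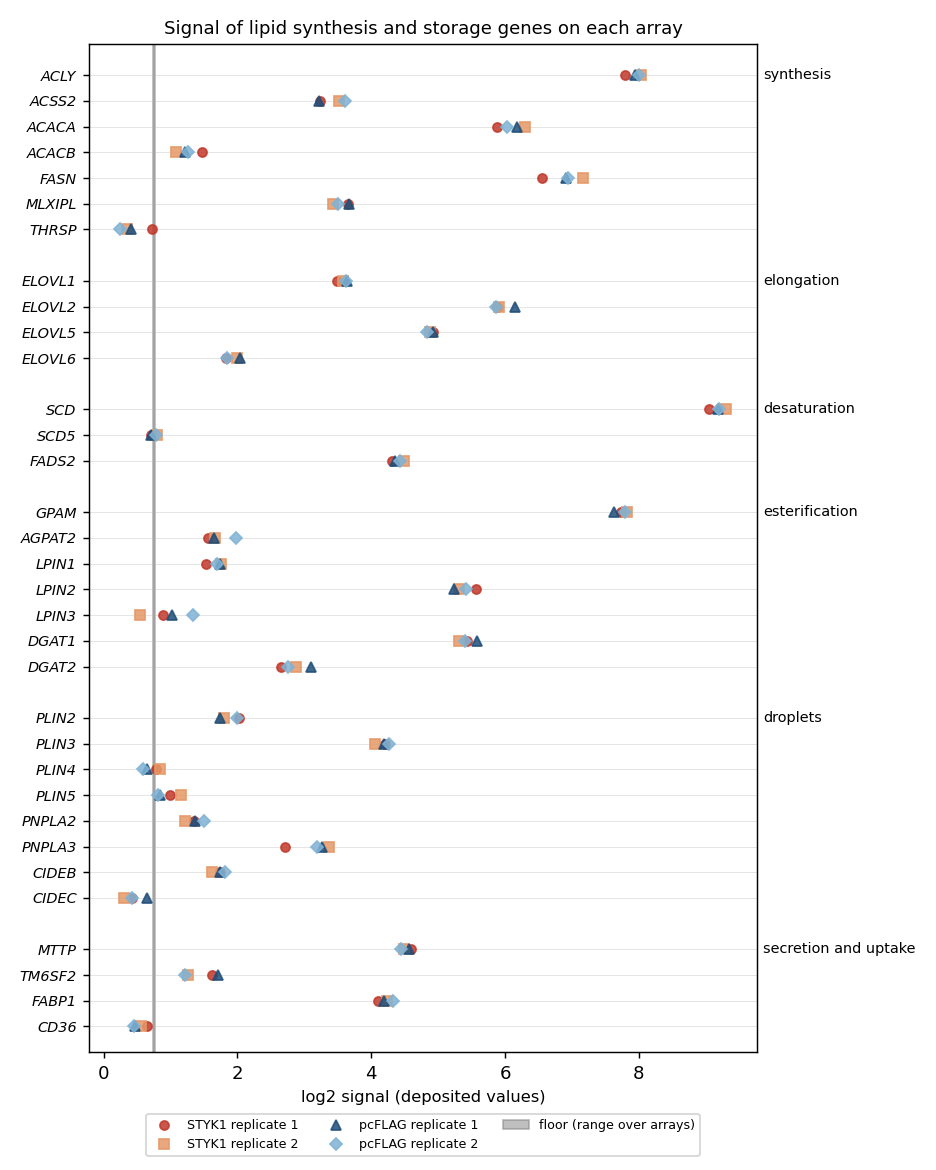
Log2 signal on each of the 4 arrays for the 33 genes by step, with red and orange symbols for the STYK1 arrays, dark and light blue ones for the pcFLAG arrays and a grey band for the floor (0.75 to 0.77). The 4 symbols of a gene lie close together on this scale, and THRSP, CIDEC and CD36 lie under the floor on all arrays. Positions of different genes should not be compared.

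Esterification held the gene nearest to a call. LPIN3, one of the lipins that remove phosphate from phosphatidate to give diacylglycerol, read 0.89 and 0.55 in the STYK1 arrays, against 1.02 and 1.33 in the pcFLAG arrays. STYK1 replicate 2 lay under the floor and the other 3 arrays above it, so the difference rests on signals near background. The difference was −0.46 ± 0.17 (SE; limma, unadjusted p = 0.0461, adjusted p = 0.979). It was −0.62 without STYK1 replicate 1 and −0.29 without STYK1 replicate 2. It was −0.61 without pcFLAG replicate 1 and −0.30 without pcFLAG replicate 2. The count of the 33 genes at an unadjusted p under 0.05 was 0 with the replicate number as a block (limma). In that fit 2231 of all 53617 probe sets reached that level. The count was also 0 among probe sets above the floor, where 952 probe sets reached it.

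The other lipins had groups that overlapped. LPIN1, which also acts as a transcriptional coactivator in liver, read 1.53 and 1.75 in the STYK1 arrays, against 1.74 and 1.69 in the pcFLAG arrays. LPIN2 read 5.56 and 5.31 in the STYK1 arrays, against 5.24 and 5.41 in the pcFLAG arrays, a difference of 0.11 ± 0.13 (SE). Whether the lipins differed from one another in their response was not tested. GPAM, the mitochondrial acyltransferase that commits acyl chains to glycerolipid synthesis, read 7.73 and 7.82 in the STYK1 arrays, against 7.63 and 7.79 in the pcFLAG arrays. AGPAT2, which adds the second acyl chain, read 1.56 and 1.66 in the STYK1 arrays, against 1.65 and 1.98 in the pcFLAG arrays, where pcFLAG replicate 2 stood above the other 3. DGAT1 and DGAT2 both catalyse the last step of triglyceride synthesis, and the groups overlapped for both. DGAT1 read 5.43 and 5.32 in the STYK1 arrays, against 5.58 and 5.40 in the pcFLAG arrays. DGAT2 read 2.66 and 2.87 in the STYK1 arrays, against 3.10 and 2.75 in the pcFLAG arrays, a difference of −0.16 with a 95% interval of −0.57 to 0.25.

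The groups did not overlap for 4 of the 8 lipid droplet genes, where 32.9% of all genes had such groups, 2 with higher and 2 with lower values in the STYK1 arrays. PLIN5, the perilipin that links droplets to mitochondria in oxidative tissues, read 1.00 and 1.16 in the STYK1 arrays, against 0.85 and 0.82 in the pcFLAG arrays. The difference was 0.25 ± 0.099 (SE; limma, unadjusted p = 0.0589, adjusted p = 0.979). PLIN4, a droplet coat protein of adipose tissue and muscle, read 0.78 and 0.84 in the STYK1 arrays, against 0.65 and 0.59 in the pcFLAG arrays (limma, adjusted p = 0.979). It crossed the floor only in the STYK1 arrays, so it is given as at least 1.03-fold higher there. PLIN2, the main droplet coat protein of hepatocytes, differed by 0.043 ± 0.14 (SE), and the common shift of centring turned it to −0.0017. PLIN3, a coat protein present in most tissues, read 4.21 and 4.06 in the STYK1 arrays, against 4.20 and 4.27 in the pcFLAG arrays. PLIN1, the adipocyte perilipin and no member of the list of 35, read 1.03 and 0.68 in the STYK1 arrays, against 0.53 and 0.55 in the pcFLAG arrays, and it passed the floor on STYK1 replicate 1 alone. Thus PLIN1, PLIN4 and PLIN5 had groups that did not overlap, all near the floor, while PLIN2 and PLIN3 had groups that overlapped. This grouping was made after the values were seen. The other adipocyte markers above the floor on any array had negative differences: GPD1, a glycerol phosphate dehydrogenase, read 0.65 and 0.66 in the STYK1 arrays, against 0.86 and 0.78 in the pcFLAG arrays. TRARG1, a regulator of glucose transporter traffic, differed by −0.069, and without PLIN1 the summed signals of the groups overlapped.

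PLIN4 and PLIN5 are neighbours on chromosome 19 and are read from the same strand. The 250 bases before each start are shown because these neighbours both had groups that did not overlap, PLIN5 at chr19:4535225-4535474 and PLIN4 at chr19:4518487-4518736 (RefSeq, GRCh38.p14, minus strand). Capitals mark CCAAT, the NF-Y motif, GGGCGG, the GC box of Sp1, TCACNCCAC, a sterol element core, and CACGTG, an E-box, on either strand, where motifs may overlap.
PLIN5: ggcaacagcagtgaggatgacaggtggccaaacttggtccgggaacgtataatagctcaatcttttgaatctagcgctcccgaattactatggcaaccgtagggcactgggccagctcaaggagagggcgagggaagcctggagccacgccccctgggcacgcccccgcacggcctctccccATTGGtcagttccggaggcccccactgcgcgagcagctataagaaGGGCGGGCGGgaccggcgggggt
PLIN4: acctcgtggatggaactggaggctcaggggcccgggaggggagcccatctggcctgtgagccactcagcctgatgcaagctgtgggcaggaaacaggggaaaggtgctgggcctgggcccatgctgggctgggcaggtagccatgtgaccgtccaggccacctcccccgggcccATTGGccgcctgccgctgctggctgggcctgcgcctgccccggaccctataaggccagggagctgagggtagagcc
Both windows hold 1 CCAAT on the reverse strand, as 33% of all first-listed promoters do on either strand, and PLIN5 also holds 2 overlapping GGGCGG. A match of letters is a description of the sequence and shows no bound factor.

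PNPLA2, PNPLA3 and CIDEB had negative differences, none past the test. PNPLA2, the adipose triglyceride lipase that starts the breakdown of stored fat, read 1.35 and 1.22 in the STYK1 arrays, against 1.37 and 1.50 in the pcFLAG arrays. CIDEB, which helps to load lipid onto very low density lipoprotein, read 1.74 and 1.62 in the STYK1 arrays, against 1.74 and 1.82 in the pcFLAG arrays. The groups of these genes were parted by margins far smaller than their standard errors, and the differences were −0.15 ± 0.10 (SE) for PNPLA2 and −0.10 ± 0.095 (SE) for CIDEB. PNPLA3, a droplet protein whose common variant is a known risk factor for fatty liver, read 2.71 and 3.37 in the STYK1 arrays, against 3.27 and 3.19 in the pcFLAG arrays. STYK1 replicate 1 stood alone at the low end and replicate 2 was the highest of the 4. Without STYK1 replicate 1 its difference was 0.15 and without STYK1 replicate 2 it was −0.52, against −0.19 over all 4 arrays (95% interval −0.80 to 0.43). The probe set that lists PNPLA3 together with SAMM50 read 4.78 and 4.77 in the STYK1 arrays, against 4.85 and 4.85 in the pcFLAG arrays. It did not have this order of the arrays, and its value cannot be given to a single gene. CIDEC, which drives droplet fusion, was under the floor on all 4 arrays.

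No gene of secretion and uptake passed the test. MTTP, which transfers triglyceride to apolipoprotein B, read 4.60 and 4.50 in the STYK1 arrays, against 4.57 and 4.45 in the pcFLAG arrays, and its difference of 0.043 turned to −0.0020 with the same shift. TM6SF2, which is needed for full lipidation of lipoproteins, read 1.63 and 1.26 in the STYK1 arrays, against 1.71 and 1.22 in the pcFLAG arrays, so each group had 1 high and 1 low array. FABP1, the liver fatty acid binding protein, read 4.10 and 4.23 in the STYK1 arrays, against 4.19 and 4.32 in the pcFLAG arrays. CD36, a fatty acid receptor at the cell surface, read 0.65 and 0.57 in the STYK1 arrays, against 0.46 and 0.46 in the pcFLAG arrays, with all 4 values under the floor. Its groups did not overlap, yet no level above background was measured in either.

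For many of these genes the 2 STYK1 arrays lay further from each other than the group means did. For 7 of the 33 genes, or 21.2%, STYK1 replicate 1 was the lowest and STYK1 replicate 2 the highest of the 4 arrays, where 8.63% of all genes had that order. These were ACLY, ACACA, FASN, SCD, FADS2, LPIN1 and PNPLA3. STYK1 replicate 1 was the lowest array for 12 of the 33 genes, or 36.4%, where it was the lowest for 24.8% of all genes. Of the 27 members above the floor on the 4 arrays it was the lowest for 12, or 44.4%. That held for 23.2% of all genes above the floor on the 4 arrays. The order of these 7 genes was found in 7 of those 27 members and in 738 of all 9622 genes above the floor. The distance from STYK1 replicate 1 up to replicate 2 was 0.67 for PNPLA3, 0.60 for FASN, 0.43 for ACACA, 0.26 for SCD, 0.24 for ACLY, 0.22 for LPIN1 and 0.19 for FADS2. The pcFLAG values lie between these by the choice of the genes. The pattern was noticed in the values, it concerns single arrays and has no test, and its cause was not tested.

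Other members ran the opposite way. Of the 33, 15 were lower in STYK1 replicate 2 than in STYK1 replicate 1, or 45.5%, where this held for 50.9% of all genes. Of the 27 above the floor on the 4 arrays it was 11, led by ACACB, lower by 0.40, and TM6SF2, lower by 0.36. Taken relative to each gene's own mean, the steps did not share 1 order of the arrays. The 7 synthesis genes averaged −0.037 and 0.044 in the STYK1 arrays, against −0.0056 and −0.0014 in the pcFLAG arrays. The 3 desaturases averaged −0.091 and 0.090 in the STYK1 arrays, against −0.028 and 0.029 in the pcFLAG arrays. In both steps STYK1 replicate 2 was the higher of the STYK1 arrays. The 4 elongases averaged −0.056 and 0.0042 in the STYK1 arrays, against 0.097 and −0.046 in the pcFLAG arrays. The 7 esterification genes averaged −0.055 and −0.065 in the STYK1 arrays, against 0.032 and 0.089 in the pcFLAG arrays. Both STYK1 averages thus lay on the same side there, as did those of the droplet genes below. These averages include signals near or under the floor. LPIN3 deviated by −0.062 and −0.40 in the STYK1 arrays, and THRSP, of the synthesis step, by 0.29 and −0.076. The 8 droplet genes averaged −0.024 and −0.0046 in the STYK1 arrays, against 0.0054 and 0.023 in the pcFLAG arrays. The 4 genes of secretion and uptake averaged 0.064 and −0.043 in the STYK1 arrays, against 0.048 and −0.069 in the pcFLAG arrays. In that step the average was higher for replicate 1 of both groups. MTTP, TM6SF2 and CD36 had that order, CD36 under the floor, and FABP1 had the opposite order in both groups. The absolute distance between the 2 STYK1 arrays had a median of 0.16 over the 33 genes and 0.12 over all genes. That distance exceeded the size of the group difference for 24 of the 33, or 72.7%, where this held for 61.3% of all genes.

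**Figure D3:**
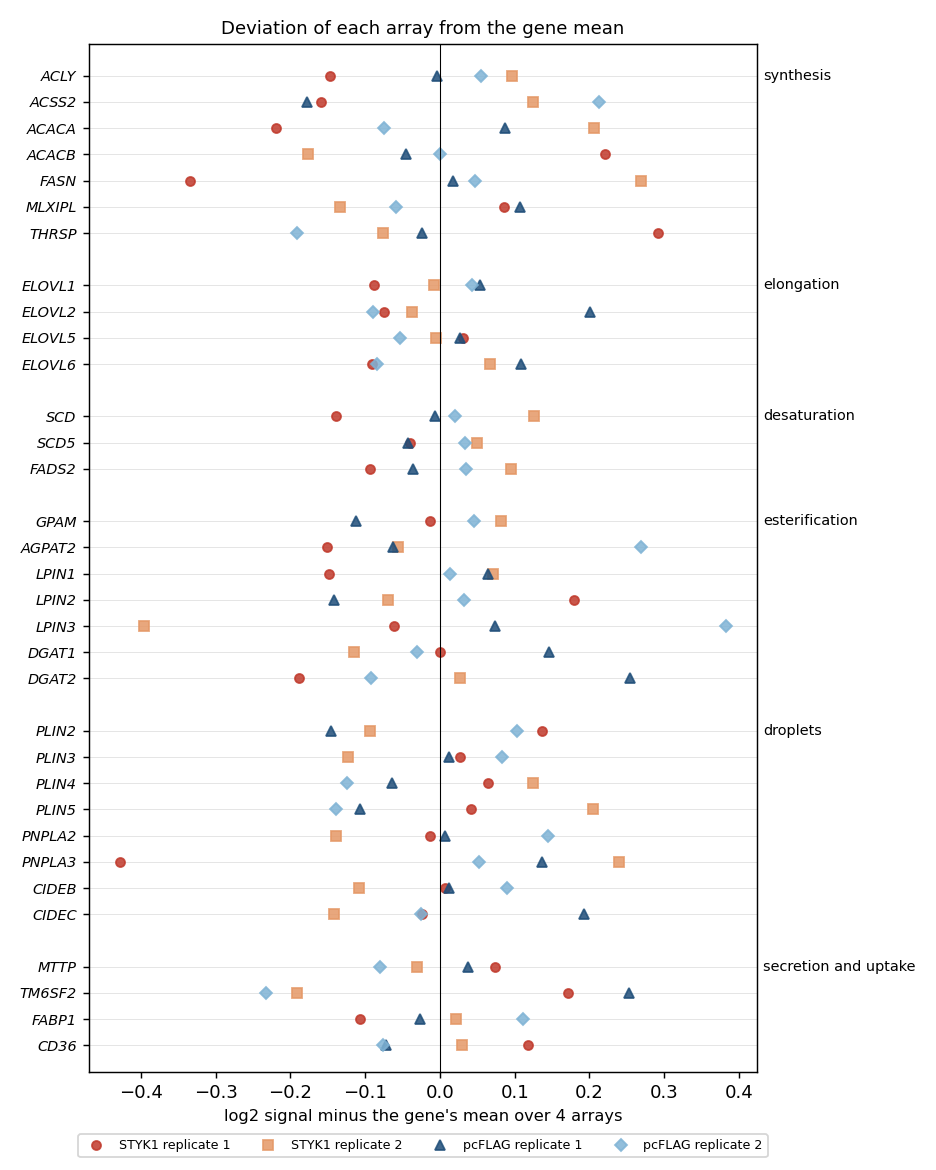
Log2 signal of each array minus the gene's mean over the 4 arrays, for the 33 genes by step, with red and orange symbols for the STYK1 arrays and dark and light blue ones for the pcFLAG arrays. Red circles lie furthest left and orange squares furthest right for ACLY, ACACA, FASN, SCD, FADS2, LPIN1 and PNPLA3, with the blue symbols between them.

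The 250 bases before the start of 3 of these 7 genes are shown, as genes that shared this order of the arrays. ACLY lies at chr17:41919023-41919272 on the minus strand, SCD at chr10:100346983-100347232 on the plus strand and FADS2 at chr11:61815953-61816202 on the plus strand (RefSeq, GRCh38.p14, first-listed start). Capitals mark the same 4 motifs on either strand.
ACLY: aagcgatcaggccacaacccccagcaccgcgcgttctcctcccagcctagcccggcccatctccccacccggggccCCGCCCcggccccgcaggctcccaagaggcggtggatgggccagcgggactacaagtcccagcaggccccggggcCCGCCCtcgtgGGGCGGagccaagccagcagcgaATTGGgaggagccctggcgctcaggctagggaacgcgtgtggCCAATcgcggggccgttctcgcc
SCD: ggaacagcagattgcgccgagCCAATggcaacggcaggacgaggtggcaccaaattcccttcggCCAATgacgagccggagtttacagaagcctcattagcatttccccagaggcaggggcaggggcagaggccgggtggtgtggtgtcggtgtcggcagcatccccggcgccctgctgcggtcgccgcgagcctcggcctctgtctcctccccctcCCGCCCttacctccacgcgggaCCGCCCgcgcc
FADS2: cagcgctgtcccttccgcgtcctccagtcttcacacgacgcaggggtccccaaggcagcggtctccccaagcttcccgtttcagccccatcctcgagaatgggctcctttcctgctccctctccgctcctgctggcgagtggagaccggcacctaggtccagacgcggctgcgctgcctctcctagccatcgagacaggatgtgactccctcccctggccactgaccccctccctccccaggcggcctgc
ACLY holds 2 CCAAT and 3 GGGCGG and SCD holds 2 of each, while this FADS2 window holds none of the 4. ACLY and FADS2 each have 2 listed starts, and ACACA and LPIN1 each have 3. Only the first was read, so these windows do not describe the other starts of these genes. The windows of ACACA and LPIN1, with the same order of arrays, hold no CCAAT and hold 5 and 4 GGGCGG, so CCAAT was in 2 of 5 windows, or 40%, and GGGCGG in 4 of 5, or 80%. FASN and PNPLA3, which had that order too, had no listed window. Of 28 members with a listed promoter, 11 hold CCAAT, or 39.3%, and 20 hold GGGCGG, or 71.4%. Over the first-listed promoters of 27305 genes these shares were 33% and 42.3%. These genes were not limited to those measured on the arrays, and no difference between shares was tested. TCACNCCAC was found in 1 of the 28, a share of 3.57% against 0.875% of all genes, and CACGTG in 2, or 7.14% against 6.49%. A window without these letters says nothing about whether the factor acts on the gene.

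The genes around this pathway, the factors that control it, the suppliers of citrate and NADPH, the fatty acid carriers and the other acyltransferases, elongases and droplet proteins, also had no call. Of 81 listed, 70 had a probe set of their own, and 0 passed the adjusted threshold (limma, smallest adjusted p = 0.979). At an unadjusted p under 0.05 there were 5, or 7.14%, against 4.64% of all probe sets and 3.72% of all genes: FABP5 and GPAT4 with positive and INSIG1, NR1H3 and SLC27A4 with negative differences. With a trend in the variance the count was 2 (limma), where 2513 of all 53617 probe sets reached that level. Of the 70, 35 had a positive and 35 a negative difference, and 22 and 48, or 31.4% positive, under centring, where 36.2% of all genes were positive. The groups did not overlap for 27 of the 70, or 38.6%, where this held for 32.9% of all genes.

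Among the controllers, INSIG1, the sterol-regulated protein that holds SREBP precursors in the endoplasmic reticulum, had the smallest p of the list. It read 4.36 and 4.32 in the STYK1 arrays, against 4.64 and 4.67 in the pcFLAG arrays, a difference of −0.32 ± 0.085 (SE; limma, unadjusted p = 0.0153, adjusted p = 0.979). Unlike FASN or PNPLA3, its 2 STYK1 values lay 0.033 apart. NR1H3, the oxysterol receptor LXR alpha that drives the SREBP-1c gene, read 0.60 and 0.86 in the STYK1 arrays, against 1.20 and 1.14 in the pcFLAG arrays. STYK1 replicate 1 was under the floor, and the difference was −0.44 ± 0.12 (SE; limma, unadjusted p = 0.0161, adjusted p = 0.979). SREBF1, which encodes SREBP-1, read 1.64 and 1.49 in the STYK1 arrays, against 1.38 and 1.65 in the pcFLAG arrays, and SREBF2 differed by −0.069 ± 0.11 (SE). These 2 genes fall outside the naming rule and were added after their values were seen. With a trend in the variance the unadjusted p was 0.0749 for INSIG1 and 0.0167 for NR1H3 (limma, adjusted p = 0.979 for both). Of 16 measured controllers 6 had positive and 10 negative differences, or 37.5% positive, with a median of −0.13. Among all genes 50.8% were positive and the median was 0.0022, and the split of the controllers was not tested.

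Enzymes and carriers around the pathway had differences of either sign, and none passed the test. GPAT4, an acyltransferase of the endoplasmic reticulum that starts triglyceride synthesis, read 5.02 and 5.16 in the STYK1 arrays, against 4.69 and 4.77 in the pcFLAG arrays, a difference of 0.36 ± 0.10 (SE; limma, unadjusted p = 0.0173, adjusted p = 0.979). SOAT2, which makes cholesteryl esters in liver, read 3.65 and 3.51 in the STYK1 arrays, against 3.71 and 3.96 in the pcFLAG arrays. FABP5, a fatty acid carrier, read 1.43 and 1.52 in the STYK1 arrays, against 1.04 and 1.24 in the pcFLAG arrays (limma, unadjusted p = 0.0314). SLC27A4, a fatty acid transport protein and acyl-CoA synthetase, read 2.45 and 2.48 in the STYK1 arrays, against 2.98 and 2.67 in the pcFLAG arrays (limma, unadjusted p = 0.0444). In all 4 the groups did not overlap, as for 32.9% of all genes, but these genes were picked by the smallest p of their step. The adjusted p was 0.979 for each (limma).

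SLC25A1, the mitochondrial citrate exporter, read 5.79 and 6.10 in the STYK1 arrays, against 6.28 and 6.18 in the pcFLAG arrays, a difference of −0.28. The distance between its 2 STYK1 values, 0.31, was larger than that. IDH1, a cytosolic source of NADPH, differed by 0.13 ± 0.11 (SE). ELOVL4, under the floor in both STYK1 arrays, was at least 1.02-fold higher in the pcFLAG arrays, and FADS6 and the lysosomal lipase LIPA were under the floor on all 4. APOC3, an inhibitor of lipoprotein clearance, read 4.78 and 5.25 in the STYK1 arrays, against 5.15 and 5.37 in the pcFLAG arrays. APOB, the structural protein of very low density lipoprotein, differed by 0.056 ± 0.085 (SE; 95% interval −0.17 to 0.28).

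**Figure D4:**
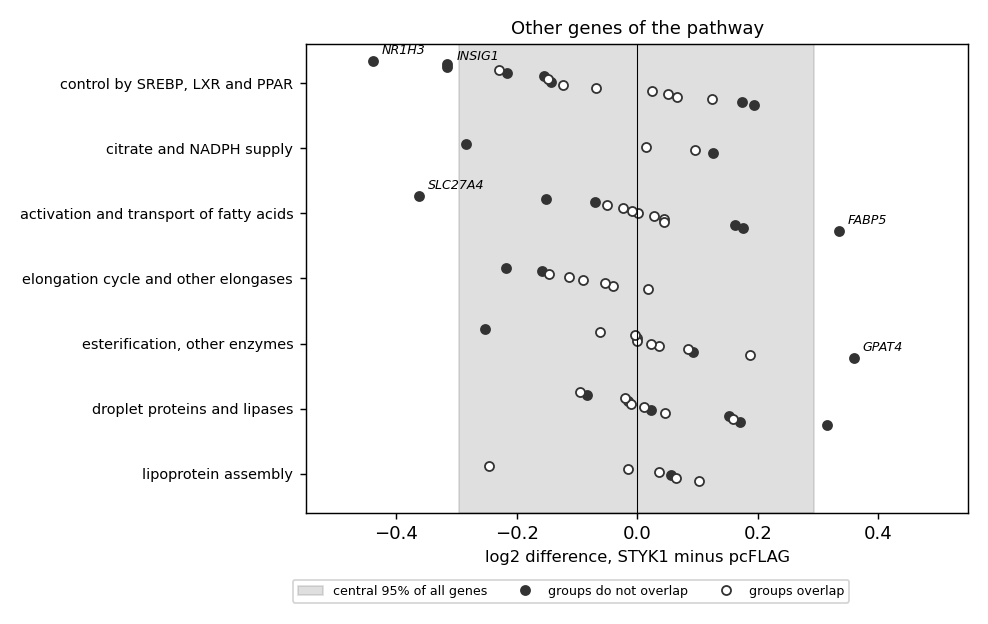
Log2 difference, STYK1 minus pcFLAG, for 70 other pathway genes by step (1 point per gene, small vertical offsets for legibility), filled where the groups do not overlap and open where they do. The grey band holds the central 95% of the differences of all genes, and names mark the 5 genes at an unadjusted p under 0.05 (INSIG1, NR1H3, GPAT4, FABP5 and SLC27A4).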

How the data were processed

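Huh7 cells transfected with pcFLAG-hSTYK1 or pcFLAG were profiled on Affymetrix whole-transcript arrays with biotin-labelled cDNA, per the labels' protocols. Their processed signals, deposited as 1 table, were read here as log2 values. The base was inferred, since natural logarithms would put the largest signal of each array at 82224 to 84779, beyond the 65535 a scanner records. Per the submitters' processing notes, the Transcriptome Analysis Console was used. The sources used here give neither its version nor the summarization and normalization. Arrays were near-equal in scale, so no further normalization was applied, and 0 columns belonged to other samples. The table carries no detection calls or scan dates, and processing that compresses dim signals would shrink the differences of dim genes. The number of arrays limits the precision. All 6 pairs of arrays had different values at nearly all probe sets, so none was a copy.

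Of 53617 probe sets, 23871 had 1 gene symbol, 1842 several and 27904 none here. Of the named ones, 22569 matched RefSeq (GRCh38.p14) by Entrez ID, which updated 90 symbols. STYK1 and pcFLAG arrays were compared with limma 3.58.1 in R 4.3.3 (lmFit with group as the term, eBayes, two-sided, Benjamini-Hochberg over all probe sets, threshold 0.05). The model has 2 residual degrees of freedom and a prior of 2.71, and an exact permutation test of 2 against 2 arrays cannot go below p = 0.333. The script was tested on simulated arrays. Where a group lay under the floor on both arrays, its level was set to the floor for a lower bound. The members and lists were chosen with earlier results of these data known. All measured members are named or counted, and of the 81 other pathway genes those at an unadjusted p under 0.05 and up to 2 per step by smallest p are named. Promoter windows of 250 bases before the first-listed start came from RefSeq, matched by symbol for 28 of the 33 members. Alternatives were quantile normalization, centring, an eBayes trend, a floor filter, 1 probe set per gene, gene means, leaving out each array and a replicate block.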

Additional observations from a re-analysis of the deposited data

How the results depend on the processing

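No alternative gave any of the 33 genes an adjusted p under 0.05 (smallest 0.956, limma). The STYK1 difference ran from 6.96 to 7.42 with 1 array left out and lost its call each time; those fits borrow the spread of the intact group for the single array. With the replicate number as a block it was 7.19 with an adjusted p of 0.0637. These sizes are set against pcFLAG signals under the floor, so the at least 117-fold bound is the measure of size. The count of probe sets past the adjusted threshold, 1, was 0 with any array left out (lowest 0, highest 0) and 0 with the block. Same-numbered arrays deviated together at a correlation of −0.044 over all probe sets, so the numbers are not known to pair the arrays, and the replicate block moved the count of the 33 genes at an unadjusted p under 0.05 to 0. Probe sets at that level numbered 952 above the floor, 1002 with 1 per gene and 1009 with gene means, against 2489, since fewer features were tested. The member count of 1 was 0 above the floor and 0 to 3 with 1 array left out. The pathway count of 5 was 2 with a trend, 3 above the floor and 1 to 7 with 1 array left out. The members' median of −0.035 was −0.064 after quantile normalization, −0.080 after centring, −0.050 above the floor and −0.089 to −0.0094 with 1 array left out. Centring lowers every difference by the same amount, −0.045, and moved the median of all genes to −0.043.

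Signs turned under quantile normalization for ELOVL5 (−0.0032) and FADS2 (−0.016), where the cause was not tested. Centring turned, by its common shift, the members whose positive difference was smaller than that shift: ELOVL5 (−0.018), SCD5 (−0.035), FADS2 (−0.044), PLIN2 (−0.0017) and MTTP (−0.0020). Signs with 1 array left out were not counted over all genes, 61.3% of which had STYK1 arrays further apart than the group means. Of the 33 genes, 13 kept their sign in all 4 such fits and 20 did not. Their differences spanned −0.17 to 0.070 for ACLY, −0.23 to 0.16 for ACSS2, −0.22 to 0.20 for ACACA, −0.15 to 0.24 for ACACB, −0.37 to 0.24 for FASN, −0.16 to 0.062 for MLXIPL, −0.26 to 0.033 for ELOVL2, −0.013 to 0.067 for ELOVL5, −0.12 to 0.071 for ELOVL6 and −0.15 to 0.12 for SCD. They spanned −0.035 to 0.054 for SCD5, −0.093 to 0.095 for FADS2, −0.011 to 0.15 for GPAM, −0.19 to 0.033 for LPIN1, −0.014 to 0.23 for LPIN2, −0.34 to 0.011 for DGAT2, −0.082 to 0.17 for PLIN2, −0.52 to 0.15 for PNPLA3, −0.016 to 0.10 for MTTP and −0.26 to 0.22 for TM6SF2. Among the other named pathway genes the signs of SREBF1 (−0.081 to 0.18) and SREBF2 (−0.16 to 0.026) turned. Signals near the floor, as for SCD5, LPIN3 and PLIN4, limit what their differences can show.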
